A study of Mus musculus with 12 samples.

Results

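F-box proteins are the substrate receptors of SCF ubiquitin ligases, and their messenger RNAs were followed in C2C12, an established line of mouse myoblasts that leaves the cell cycle and forms myotubes when serum is lowered. The members were the genes of the counts table whose symbol is Fbxl, Fbxo or Fbxw followed by a number, other than Fbxo32, with a sum of at least 10 counts in the 12 libraries together. Of 73 such symbols without Fbxo32, 10 had no count and 3 had fewer than 10 counts (Fbxo27, Fbxo41 and Fbxo43), which left 60 members among the 21232 genes of the table. They comprised 18 Fbxl, 33 Fbxo and 9 Fbxw genes. The rule works on symbols, so F-box genes that carry other names, such as Skp2, Btrc, Ccnf, Kdm2a and Kdm2b, are not members and are given separately.

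RNA of C2C12 cells was sequenced in 4 groups of 3 libraries, named A, B and C. The labels give the strain as C57BL/6 in every group. Proliferating myoblasts were sampled in growth medium at 0 h, and the other 3 groups were sampled at 48 h in low-serum differentiation medium: control cells, cells given TNF (an inflammatory cytokine) at 10 ng/ml, and cells treated with siRNA against Fbxl2. Whether the letters stand for separate cultures is not stated, so a p-value here reflects spread between libraries that may be technical only. Whether a non-targeting siRNA was given to the control and TNF cells is not stated either. Differentiation, TNF and siRNA comparisons all use the same 3 control libraries. In bulk RNA such as this, fewer cells of a type and less RNA per cell cannot be told apart.

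An SCF ligase is built from the scaffold Cul1, the RING protein Rbx1, the adaptor Skp1 and an exchangeable F-box protein, whose F-box binds Skp1 and whose other domains bind the substrate. Fbxl proteins carry leucine-rich repeats, Fbxw proteins carry WD40 repeats, and Fbxo proteins carry other domains. In muscle, F-box proteins are best known for the turnover of myogenic and sarcomeric proteins and for the atrophy programme, while others time the cell cycle.

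Library totals ran from 26416978 to 32917763 counts. Levels are given as CPM (counts scaled to a common library size) on totals scaled by TMM factors, as mean ± SD over 3 libraries, and 3 counts corresponded to between 0.0899 and 0.114 CPM. Markers of differentiating muscle and of dividing cells separated proliferating from control libraries, and markers of myoblasts did not mark the proliferating group. The summed level of 8 genes of differentiating muscle was 64.9 to 84.6 CPM in proliferating libraries, 2948 to 3527 CPM in control, 652 to 897 CPM with TNF and 992 to 1557 CPM with siRNA. The summed level of 8 genes of dividing cells was 2014 to 2211 CPM, 569 to 641 CPM, 1087 to 1127 CPM and 1191 to 1252 CPM in the same order. For 4 myoblast genes (Myod1, Myf5, Des and Cdh15) it was 1395 to 1543 CPM, 1721 to 1788 CPM, 968 to 1026 CPM and 1698 to 1788 CPM. Among markers of other cells, 3 adipocyte and 3 endothelial genes each summed to under 0.5 CPM in every library, 4 macrophage genes summed to between 1.32 and 2.77 CPM with Adgre1 at no count, and 5 fibroblast genes, most of it Col1a1, summed to 461 to 612 CPM, 2275 to 2342 CPM, 2061 to 2167 CPM and 1564 to 1679 CPM in the same order of groups.

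Fbxl2, the gene targeted by the siRNA, encodes a membrane-anchored F-box protein known for the turnover of cyclins and of signalling proteins such as TRAF adaptors. Its gene model lies on the minus strand at chr9:113963637-114046191 (GRCm38, the mm10 build). By global alignment of the proteins translated from the annotated coding sequences, its nearest relative among the members was Fbxl20, known for the turnover of a presynaptic protein, at 76.6% identity (324 of 423 residues). Fbxl22, a sarcomere-associated F-box protein of heart and skeletal muscle, followed at 33.9%, and Fbxl14, known for the turnover of Snail-family transcription factors, at 32.0%. Identity is the share of the shorter protein. Fbxl22 has only 236 residues, of which 80 were identical, against 128 identical residues for Fbxl14. By the same measure Fbxl22 reached 33.1% with Fbxo21, of another subfamily, so its rank as a relative of Fbxl2 is uncertain.

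The 250 bases upstream of the RefSeq start of Fbxl2 and of Fbxl20 are shown because the 2 genes are the closest relatives and their levels are set against each other below. They are RefSeq sequences of GRCm38.p6, written 5′ to 3′ on the minus strand, at chr9:114026752-114027001 and chr11:98149617-98149866. The Fbxl2 window lies inside the longer gene model given above. Capitals mark the GC box GGGCGG, which was searched on both strands (its reverse complement is CCGCCC).
Fbxl2: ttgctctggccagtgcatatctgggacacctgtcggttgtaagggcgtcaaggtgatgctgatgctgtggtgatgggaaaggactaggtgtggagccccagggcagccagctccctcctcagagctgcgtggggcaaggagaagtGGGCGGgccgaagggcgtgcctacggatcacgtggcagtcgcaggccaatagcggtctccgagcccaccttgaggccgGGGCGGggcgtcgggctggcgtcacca
Fbxl20: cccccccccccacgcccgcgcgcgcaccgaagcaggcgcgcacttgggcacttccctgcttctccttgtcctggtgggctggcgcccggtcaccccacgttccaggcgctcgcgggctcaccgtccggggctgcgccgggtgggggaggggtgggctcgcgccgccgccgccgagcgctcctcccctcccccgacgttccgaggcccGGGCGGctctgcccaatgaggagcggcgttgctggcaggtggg
The Fbxl2 window held 2 GC boxes, whose first bases lie 105 and 27 bases upstream of the start, and the Fbxl20 window held 1, at 43 bases. Its G and C content was 65.2% for Fbxl2 and 77.6% for Fbxl20. At least 1 GC box was present in 32.7% of all 32851 windows of this length, and 2 or more in 16.7%. Of 45 members with a window, 31 (68.9%) held the motif in any window, against 35.4% of 27025 genes. Per window, it was present in 40 of 62 member windows (64.5%). The members had to have counts in these cells and the 27025 genes did not, so these shares compare unlike sets and do not show a trait of F-box genes. A match describes the letters of the window and is not a measured binding site.

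Fbxl2 RNA rose on differentiation, was slightly lower with TNF, and was lowest after siRNA. Proliferating libraries A, B and C held 27.2, 26.7 and 24.0 CPM of Fbxl2, control libraries 31.9, 32.6 and 34.4, TNF libraries 27.7, 29.2 and 29.7, and siRNA libraries 22.5, 20.6 and 23.6. The 3 siRNA libraries lay below all 9 others, and the 3 control libraries above all 9 others. The change after siRNA was -0.57 on the log2 scale (standard error 0.06, 95% interval -0.70 to -0.43, adjusted p = 1.66e-07, edgeR's quasi-likelihood test with Benjamini-Hochberg adjustment, as are all adjusted p-values below), which left 67.5% of the control level. The silenced gene thus kept most of its RNA at the time of sampling, and 1339 genes (10.5% of the 12736 genes tested) were called lower with a larger fall. Differentiation raised Fbxl2 by 0.34 (interval 0.21 to 0.47, adjusted p = 4.89e-05). With TNF it differed from control by -0.19 (interval -0.32 to -0.06, adjusted p = 0.0137). That call was lost without control C (-0.16, adjusted p = 0.0626) or without TNF A (-0.16, adjusted p = 0.0629). Fbxl2 was 0.38 higher with TNF than with siRNA (interval 0.24 to 0.51, adjusted p = 4.35e-05). The use of strand in counting is not given in the sources used here, and 11.2% of the exon bases of Fbxl2 are shared with Ubp1 on the plus strand. Ubp1 stood at 50.1 ± 1.18, 66.3 ± 3.33, 71.7 ± 1.63 and 58.2 ± 3.86 CPM in proliferating, control, TNF and siRNA libraries. It changed by 0.40 on differentiation and -0.19 after siRNA (adjusted p = 0.00431), and with TNF its value was 0.12 (adjusted p = 0.0667). Its part in the Fbxl2 counts was not tested.

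**Figure D1:**
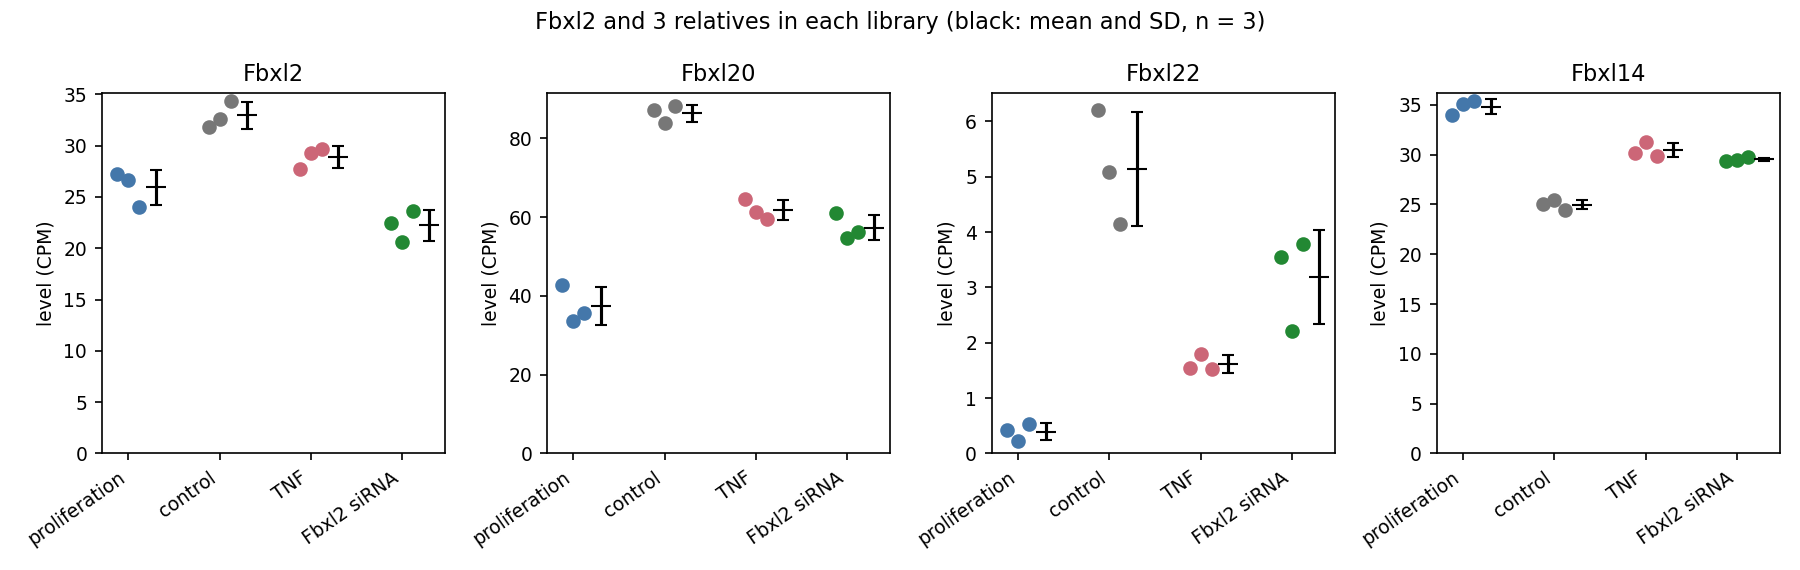
Level in CPM (vertical axes, each from 0) of Fbxl2, Fbxl20, Fbxl22 and Fbxl14 in each of 3 libraries for 4 groups; black marks are the mean and SD. Fbxl2 and Fbxl20 are both highest in control, Fbxl14 is lowest in control, and Fbxl22 spans the widest range.

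Fbxl20, the nearest relative, was not the gene named by the siRNA, and its RNA was also lower in that group. Its levels were 42.9, 33.5 and 35.7 CPM in proliferating libraries, 87.1, 83.9 and 88.1 in control, 64.7, 61.3 and 59.5 with TNF, and 60.9, 54.8 and 56.2 with siRNA. Control libraries were the highest and proliferating libraries the lowest, with no overlap, while TNF and siRNA libraries overlapped between them. Fbxl20 rose by 1.21 on differentiation (interval 1.06 to 1.35, adjusted p = 2.69e-12). It fell by 0.48 with TNF (standard error 0.07, adjusted p = 3.37e-06) and by 0.59 with siRNA (standard error 0.07, adjusted p = 2.00e-07). Between TNF and siRNA the difference was 0.11 (interval -0.03 to 0.25, adjusted p = 0.170). Among the 58 members tested, Fbxl20 had the 5th and Fbxl2 the 6th largest fall after siRNA.

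Within a library, the level of Fbxl2 relative to its family does not depend on the scaling of libraries. Fbxl2 made up 5.89 ± 0.251% of the summed counts of the 18 Fbxl genes in proliferating libraries, 6.58 ± 0.248% in control, 5.91 ± 0.217% with TNF and 4.69 ± 0.378% with siRNA (SD, n = 3). The siRNA libraries held 4.71%, 4.30% and 5.05%, all below the 9 others, which ran from 5.60% to 6.85%. Each of the 3 differences from control had an exact two-sided permutation p of 0.1, the smallest that 3 libraries against 3 allow. Per count of Fbxl20, Fbxl2 had 0.700 ± 0.0840 counts in proliferating libraries, 0.381 ± 0.0137 in control, 0.468 ± 0.0363 with TNF and 0.388 ± 0.0278 with siRNA. Control libraries held 0.366, 0.388 and 0.390, and siRNA libraries 0.369, 0.376 and 0.420, so these groups overlapped (exact permutation p = 0.8, n = 3 per group). TNF libraries, at 0.428, 0.477 and 0.499, lay above both.

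**Figure D2:**
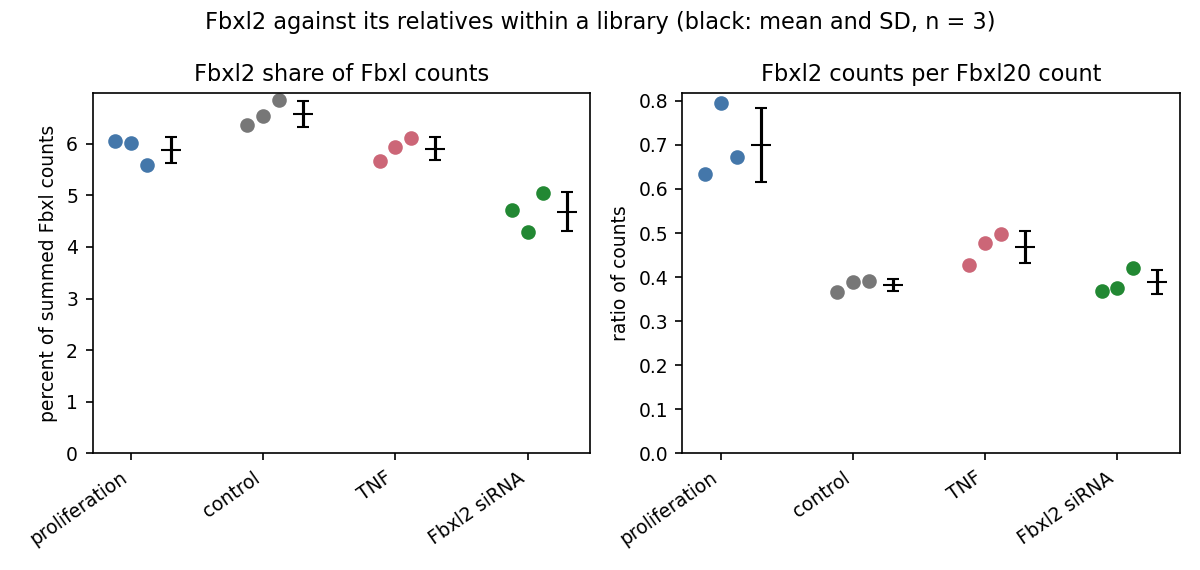
Fbxl2 as a percent of the summed Fbxl counts (left) and counts of Fbxl2 per count of Fbxl20 (right), for each of 3 libraries in 4 groups, with mean and SD in black. The share is lowest in the 3 siRNA libraries, whereas the ratio to Fbxl20 overlaps between control and siRNA.

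Fbxl22 moved more than any other member on differentiation. It was near the detection limit in proliferating libraries (0.428, 0.223 and 0.526 CPM), reached 6.20, 5.09 and 4.14 CPM in control, and stood at 1.54, 1.80 and 1.52 with TNF and 3.55, 2.21 and 3.78 with siRNA. None of the 4 groups overlapped. The rise on differentiation was 3.68 (interval 3.13 to 4.23, adjusted p = 8.64e-11), and the change from control was -1.67 with TNF (adjusted p = 6.19e-07) and -0.71 with siRNA (adjusted p = 0.00227). TNF against siRNA gave -0.97 (adjusted p = 0.000728). Of its exon bases, 8.06% are shared with Herc1 on the plus strand, which changed by 0.64 on differentiation and -0.45 with siRNA. The summed level of differentiating-muscle markers followed the same order of groups, and its part in these values was not tested.

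Fbxl14 showed the opposite order. It stood at 34.0, 35.1 and 35.4 CPM in proliferating libraries and 25.0, 25.5 and 24.5 in control, against 30.2, 31.2 and 29.9 with TNF and 29.4, 29.5 and 29.7 with siRNA. Control libraries were below all others. The changes were -0.48 on differentiation (adjusted p = 2.71e-08), 0.28 with TNF (adjusted p = 7.53e-05) and 0.24 with siRNA (adjusted p = 0.000374), and TNF against siRNA gave 0.04 (interval -0.06 to 0.15, adjusted p = 0.469).

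Across the family, 58 members passed the filter on low counts, and Fbxo15 and Fbxo39 did not. Fbxo15 had no more than 0.186 CPM in any library, and Fbxo39 was listed at 0 in all 3 proliferating libraries and at 0.0681 to 0.0756 CPM in siRNA libraries, below the level of 3 counts. On differentiation 24 of 58 members were higher (41.4%, against 38.4% of all genes tested) and 14 lower (24.1%, against 38.9%). With TNF 10 were higher (17.2%, against 31.0%) and 12 lower (20.7%, against 23.6%). After Fbxl2 siRNA 10 were higher (17.2%, against 34.1%) and 22 lower (37.9%, against 29.8%), the silenced gene Fbxl2 among the latter. TNF libraries against siRNA libraries had 12 members higher (20.7%, against 29.9%) and 10 lower (17.2%, against 30.6%). The median log2 change of the 58 members was 0.03 on differentiation, -0.04 with TNF, -0.08 with siRNA and 0.05 between TNF and siRNA. The medians of all genes tested were -0.0008, 0.03, 0.03 and -0.008. These shares describe the list and carry no test. The marker sums given above differed between the same groups, and their part in the members' changes was not tested.

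Most called changes of F-box genes were below 1.5-fold, as were most called changes of all genes. Of the called members, 29 of 38 on differentiation, 18 of 22 with TNF, 26 of 32 with siRNA and 18 of 22 between TNF and siRNA changed by less than 1.5-fold (76.3%, 81.8%, 81.3% and 81.8%). Among all called genes these shares were 53.0%, 65.8%, 66.7% and 67.9%. Changes of at least 2-fold were called for 8, 2, 3 and 2 members, or 13.8%, 3.45%, 5.17% and 3.45% of those tested, against 20.3%, 10.0%, 10.1% and 10.6% of all genes. The ratio of the highest to the lowest group mean had a median of 1.31 over the tested members, was under 1.5 for 45 of them and reached 13.1 for Fbxl22. Of the 114 calls in the 4 comparisons, 79 were kept whichever single library was left out and 64 under every alternative analysis that was run. A total of 12 tested members was called in no comparison. Matching shares of all genes were not computed for this count or for the calls kept.

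**Figure D3:**
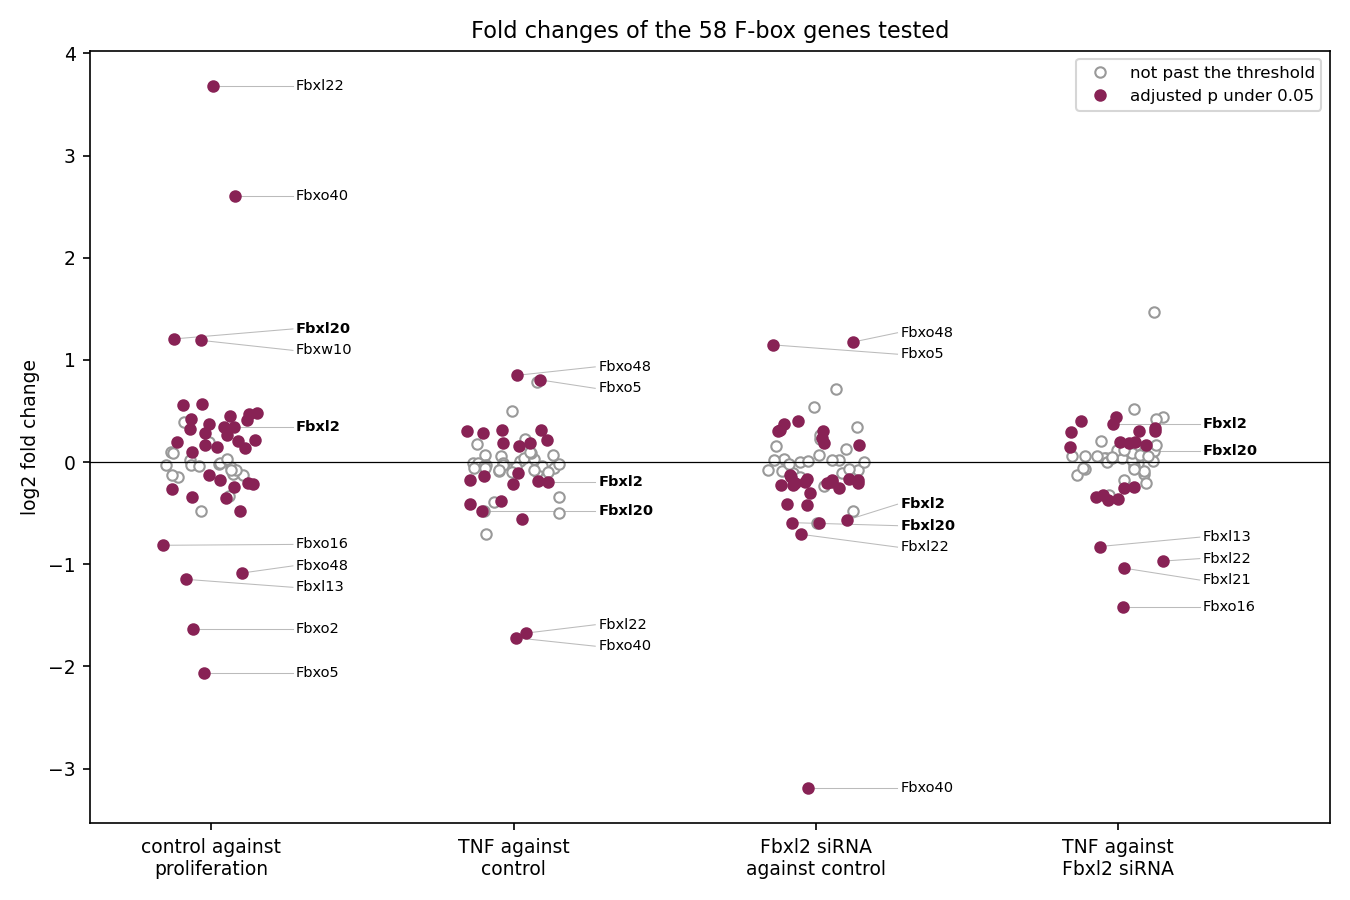
Log2 fold change (vertical axis) of the 58 tested members in 4 comparisons; filled points passed an adjusted p of 0.05, and horizontal scatter only separates points. Fbxl2, Fbxl20 and called members beyond 0.6 in either direction are labelled; most other members lie within 0.5 of 0.

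Of 9 Fbxw genes, 7 were higher and 1 lower on differentiation, 1 was higher with TNF, and 4 were lower and none higher after siRNA. Of 18 Fbxl genes, 7 were higher and 5 lower on differentiation, 2 and 5 with TNF, and 5 and 6 after siRNA. The silenced gene Fbxl2 is among the Fbxl genes lower after siRNA. Of 31 Fbxo genes tested, 10 were higher and 8 lower on differentiation, 7 and 7 with TNF, and 5 and 12 after siRNA. On differentiation, 77.8% of Fbxw, 38.9% of Fbxl and 32.3% of Fbxo genes were higher (all genes 38.4%) and 11.1%, 27.8% and 25.8% lower (38.9%). With TNF, 11.1%, 11.1% and 22.6% were higher (31.0%) and 0%, 27.8% and 22.6% lower (23.6%). After siRNA, 0%, 27.8% and 16.1% were higher (34.1%) and 44.4%, 33.3% and 38.7% lower (29.8%). Of the Fbxw genes higher on differentiation, only Fbxw4, Fbxw5, Fbxw7 and Fbxw9 kept the call in every alternative analysis. After siRNA no Fbxw gene did, and only Fbxw8 kept it whichever single library was left out. A difference between subfamilies was not tested. Summed over all members, F-box RNA amounted to 1903 ± 5.80 CPM in proliferating libraries, 1983 ± 9.10 in control, 1957 ± 5.68 with TNF and 1872 ± 12.9 with siRNA. Divided by exon length before summing, it was 442 ± 1.30, 440 ± 0.766, 441 ± 1.22 and 426 ± 0.906 CPM per kb, lowest in the 3 siRNA libraries (exact two-sided permutation p = 0.1 against control, the smallest possible with n = 3). Proliferating and TNF libraries against control gave the same permutation p of 0.1, so it does not single out the siRNA group.

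Levels between genes can be compared only per length, here as CPM per kb of annotated exon averaged over the 4 groups. Among the highest members were Fbxw11, which encodes a beta-TrCP protein of NF-kB and Wnt signalling, at 31.3 CPM per kb, Fbxw8, a partner of Cul7, at 29.2, Fbxo11, known for the turnover of BCL6, at 25.9, and Fbxo6, a glycoprotein receptor, at 20.1. The lowest were Fbxo39 at 0.0188 CPM per kb, Fbxo15 at 0.0281, Fbxo40 at 0.0409, Fbxw10 at 0.0720 and Fbxl21 at 0.197. The median was 5.31 CPM per kb. Fbxl2, at 6.19, ranked 27th of 60, and Fbxl20, at 5.02, ranked 33rd. Of the exon bases of Fbxw8, 33.4% are shared with Gm9754, which had at most 0.444 CPM in any group mean.

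**Figure D4:**
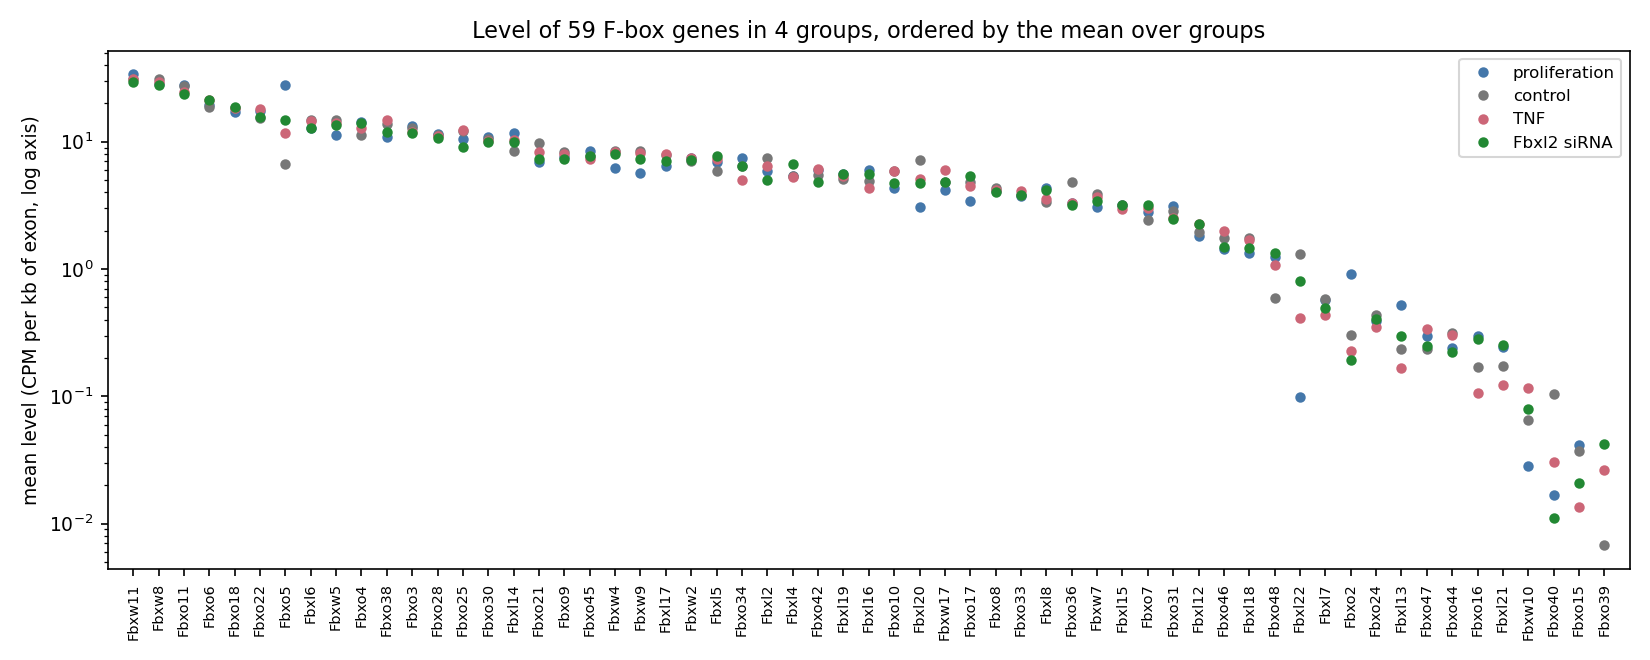
Mean level of 59 of the 60 members in CPM per kb of exon (log axis) in 4 groups, ordered by the mean over groups. Most members lie between 1 and 30 CPM per kb with group means close together, Fbxo5, Fbxl22 and Fbxo2 show wide gaps between groups, and Fbxo39 in proliferating cells, at 0, is not drawn.

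Among 12 members listed for roles in the cell cycle and genome maintenance, Fbxo43 had too few counts to be a member, and of the other 11, 3 were higher and 4 lower on differentiation, 4 and 2 with TNF, and 5 and 3 after siRNA. These are 27.3% and 36.4%, 36.4% and 18.2%, and 45.5% and 27.3%, against 38.4% and 38.9%, 31.0% and 23.6%, and 34.1% and 29.8% of all genes tested. Fbxo5, which encodes the anaphase-promoting complex inhibitor Emi1, had the largest fall of any member on differentiation. It stood at 51.6, 61.8 and 55.4 CPM in proliferating libraries, 13.0, 14.1 and 13.3 in control, 25.4, 21.7 and 23.4 with TNF and 30.0, 30.4 and 29.3 with siRNA. None of the 4 groups overlapped, with control lowest and proliferation highest. The change was -2.06 on differentiation (standard error 0.07, adjusted p = 6.18e-16), 0.80 with TNF (adjusted p = 1.43e-08) and 1.15 with siRNA (adjusted p = 4.61e-11). Between TNF and siRNA it was -0.34 (adjusted p = 0.000287). The summed level of dividing-cell markers had the same order of groups, and its part in the Fbxo5 values was not tested.

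Other cell-cycle members moved less. Fbxo4, a receptor for cyclin D1, changed by -0.34 on differentiation (adjusted p = 6.89e-05) and 0.31 after siRNA (adjusted p = 0.000341). Its level was 29.3 ± 2.54 CPM in proliferating libraries, 23.0 ± 0.412 in control, 26.1 ± 0.739 with TNF and 28.5 ± 1.74 with siRNA. Fbxl8, linked to cyclin D3 turnover, rose by 0.31 after siRNA (adjusted p = 0.00977), a call that was lost without control A (0.24, adjusted p = 0.0629) or without siRNA C (0.25, adjusted p = 0.0564). Fbxw7, the receptor for cyclin E, Myc and Notch, rose by 0.33 on differentiation (adjusted p = 0.000238), from 21.8 ± 0.495 to 27.3 ± 2.35 CPM. Fbxl7, linked to Aurora A, was lower with TNF by a log2 value of -0.41 (adjusted p = 0.0136), and the call was lost without TNF A (-0.32, adjusted p = 0.0745).

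Of 7 members listed for muscle, 4 were higher and none lower on differentiation, none was higher and 4 were lower with TNF, and none was higher and 5 were lower after siRNA. These are 57.1% higher on differentiation (all genes 38.4%), 57.1% lower with TNF (all genes 23.6%) and 71.4% lower after siRNA (all genes 29.8%). The list was drawn up with earlier results of these data known, so its direction is not independent evidence. Fbxl22, described above, belongs to it. Fbxo40, a muscle-specific receptor linked to the turnover of the insulin receptor substrate IRS1, rested on few reads. It had 2, 3 and 3 counts in proliferating libraries, 18, 21 and 13 in control, 8, 4 and 3 with TNF and 1, 1 and 3 with siRNA. Control libraries were above all others. Only control libraries reached the level that the filter on low counts requires. The tests of Fbxo40 against control thus rest on the group that let it into the test, as does its part in the counts of this list. The fitted changes were 2.61 on differentiation (interval 1.68 to 3.54, adjusted p = 2.21e-05), -1.72 with TNF (interval -2.53 to -0.90, adjusted p = 0.000831) and -3.19 with siRNA (interval -4.22 to -2.16, adjusted p = 1.13e-05). The value between TNF and siRNA was 1.47 (interval 0.12 to 2.82, adjusted p = 0.0555).

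Fbxo21, an atrophy-linked F-box protein, followed the order of Fbxl20 at a smaller size. It stood at 39.0, 37.9 and 39.2 CPM in proliferating libraries, 52.7, 53.1 and 55.5 in control, 45.7, 45.8 and 47.2 with TNF and 41.2, 39.7 and 39.9 with siRNA. None of the 4 groups overlapped. It rose by 0.47 on differentiation (adjusted p = 8.75e-09), and fell by 0.22 with TNF (adjusted p = 0.000396) and by 0.42 with siRNA (adjusted p = 1.31e-07). Fbxo30, another atrophy-linked member, showed no call in any comparison, at 56.6 ± 3.59, 55.0 ± 2.40, 52.2 ± 4.83 and 51.8 ± 1.31 CPM in proliferating, control, TNF and siRNA libraries.

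Fbxo25, the closest family relative of Fbxo32, was below all other libraries in the siRNA group and did not pass the test with TNF. It held 31.0, 32.6 and 30.2 CPM in proliferating libraries, 36.6, 36.6 and 34.8 in control, 36.4, 38.6 and 35.7 with TNF and 26.5, 26.6 and 28.3 with siRNA. Control and TNF libraries overlapped. The change was -0.41 with siRNA (interval -0.52 to -0.30, adjusted p = 1.61e-06) and 0.03 with TNF (interval -0.08 to 0.15, adjusted p = 0.610). The direct comparison of TNF with siRNA gave 0.44 (adjusted p = 6.11e-07).

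Members whose 3 siRNA libraries lay outside the range of the 9 others were few. Below all others were Fbxl2, Fbxo25 and Fbxo42, or 3 of 58 members, against 6.16% of all genes tested. Above all others were Fbxl4 and Fbxo17, or 2 of 58, against 6.08%. Fbxl4, a mitochondrial protein needed to maintain mitochondrial DNA, stood at 20.5, 21.8 and 19.5 CPM in proliferating libraries, 21.3, 19.5 and 20.5 in control, 21.5, 19.4 and 19.9 with TNF and 24.6, 26.7 and 24.4 with siRNA. The first 3 groups overlapped. Its change was 0.30 with siRNA (adjusted p = 0.000362), -0.01 with TNF (interval -0.15 to 0.12, adjusted p = 0.878) and -0.32 between TNF and siRNA (adjusted p = 0.000275). Fbxo42, linked to p53 turnover, changed by -0.18 with siRNA (adjusted p = 0.0259), a call lost without control A (-0.15, adjusted p = 0.106), siRNA B (-0.16, adjusted p = 0.0835) or siRNA C (-0.14, adjusted p = 0.114). It was also called higher with TNF than with control, which 9 of 20 alternatives kept. A further call, higher with TNF than with siRNA, was kept in every alternative. Fbxo17, a glycoprotein-binding member, had a value of 0.15 with siRNA (adjusted p = 0.0941), so its 3 libraries were higher without passing the test.

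Of 5 members listed for iron, mitochondria and growth signalling, 1 was higher and 2 lower on differentiation (all genes 38.4% and 38.9%), 2 and 0 with TNF (31.0% and 23.6%), and 3 and 1 after siRNA (34.1% and 29.8%). Fbxl5, the iron sensor that targets iron regulatory protein 2, stood at 67.1, 72.7 and 64.2 CPM in proliferating libraries, 57.5, 57.0 and 57.4 in control, 72.3, 71.5 and 70.4 with TNF and 75.6, 81.6 and 70.0 with siRNA. Control libraries were below all others. It changed by -0.25 on differentiation (adjusted p = 0.000434), 0.32 with TNF (adjusted p = 5.46e-05) and 0.40 with siRNA (adjusted p = 2.28e-06). Fbxo7, a mitophagy protein mutated in a form of parkinsonism, had 17.4 ± 0.540 CPM in proliferating libraries, 15.1 ± 0.311 in control, 18.7 ± 0.858 with TNF and 19.6 ± 0.866 with siRNA. Its control libraries were also below all others, and it rose by 0.30 with TNF (adjusted p = 0.000357) and 0.37 with siRNA (adjusted p = 3.06e-05).

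**Figure D5:**
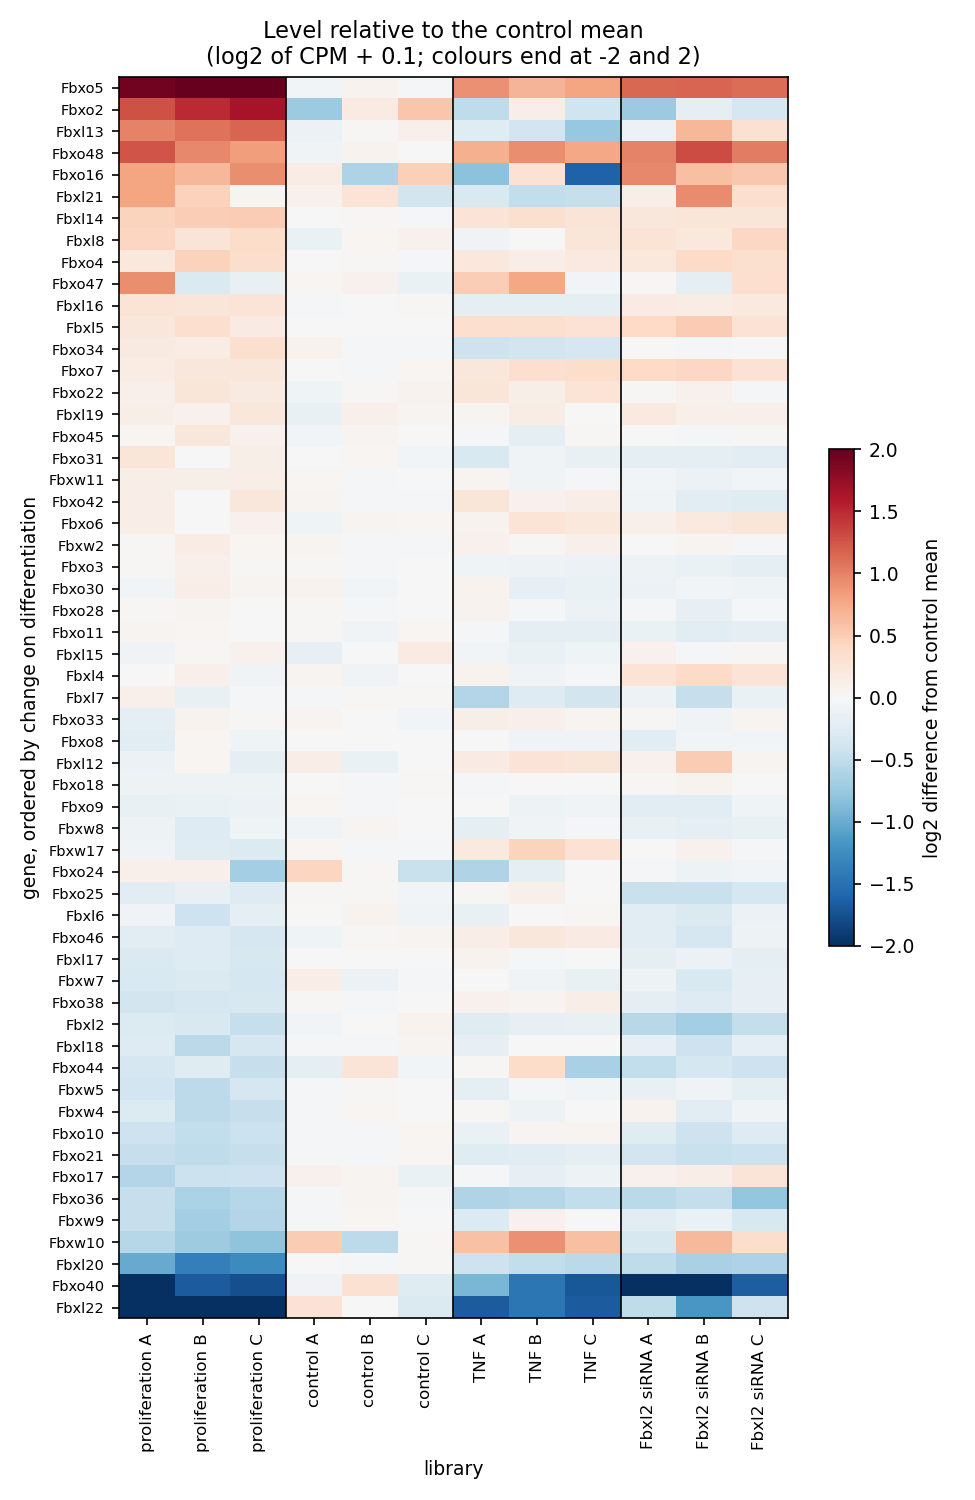
Heat map of 57 of the 58 tested members (rows, ordered by their change on differentiation) in 12 libraries (columns); colour is log2 of CPM + 0.1 relative to the control mean, and colours end at -2 and 2. Fbxo5 and Fbxo48 are above control in all 9 other libraries, Fbxl20, Fbxo36 and Fbxl22 below it, and most middle rows are pale.

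Of 10 members listed for the turnover of transcription factors, 2 were higher and 3 lower on differentiation (all genes 38.4% and 38.9%), 3 and 1 with TNF (31.0% and 23.6%), and 1 and 4 after siRNA (34.1% and 29.8%). Fbxo38, linked to the transcription factor KLF7 and to PD-1, rose from 61.8 ± 0.867 CPM in proliferating libraries to 78.3 ± 1.13 in control (0.34, adjusted p = 4.69e-07). It stood at 83.6 ± 2.26 CPM with TNF and 67.9 ± 2.13 with siRNA, a change of -0.21 from control with siRNA (adjusted p = 0.000349) and a difference of 0.30 between TNF and siRNA (adjusted p = 5.25e-06).

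Among 4 members listed for cytokine and inflammatory signalling, 1 was higher and 1 lower on differentiation (all genes 38.4% and 38.9%), and none was higher and 2 were lower with TNF (31.0% and 23.6%) and after siRNA (34.1% and 29.8%). Fbxl2 belongs to this list, so the silenced gene itself is among those lower after siRNA. Fbxo3, known as the receptor that targets Fbxl2 protein itself, was abundant at 96.5 ± 3.15, 93.5 ± 1.11, 87.0 ± 1.32 and 84.7 ± 2.83 CPM in proliferating, control, TNF and siRNA libraries. Its change was -0.10 with TNF (adjusted p = 0.0497), which kept its side of the threshold in 7 of 20 alternative analyses, and -0.14 with siRNA (adjusted p = 0.00720), which was lost without siRNA C (-0.12, adjusted p = 0.0534). Fbxw11, of the same list, was lower on differentiation (-0.12, adjusted p = 0.0165), a call that was lost without proliferation C (-0.11, adjusted p = 0.0575), control B (-0.10, adjusted p = 0.0926) or control C (-0.12, adjusted p = 0.0551). With TNF its value was -0.01 (interval -0.10 to 0.08, adjusted p = 0.845).

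Of 4 tested members listed for glycoprotein binding, 1 was higher (Fbxo17) and 1 lower (Fbxo2) on differentiation (all genes 38.4% and 38.9%). Fbxo2 fell from 1.02, 1.19 and 1.35 CPM in proliferating libraries to 0.180, 0.418 and 0.576 in control (-1.63, adjusted p = 7.79e-05). Of 4 tested members listed for neurons and synapses, 1 was higher (Fbxl20) and 2 lower (Fbxo2 and Fbxl16) on differentiation (same shares of all genes).

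Some members with no listed role had changes among the largest. Fbxo48 stood at 3.32, 2.68 and 2.43 CPM in proliferating libraries, 1.26, 1.39 and 1.33 in control, 2.24, 2.61 and 2.34 with TNF and 2.74, 3.44 and 2.80 with siRNA, so that control was below all others. It was changed by -1.08 on differentiation (adjusted p = 6.60e-06), 0.85 with TNF (adjusted p = 0.000294) and 1.18 with siRNA (adjusted p = 3.96e-06). Fbxo36 ran the other way, at 7.50, 6.66 and 6.97 CPM in proliferating libraries, 10.2, 10.8 and 10.2 in control, 6.85, 6.99 and 7.37 with TNF and 7.14, 7.42 and 6.05 with siRNA. Its control libraries were above all others, and the remaining groups overlapped. Its changes were 0.56 on differentiation (adjusted p = 6.41e-06), -0.56 with TNF (adjusted p = 1.46e-05) and -0.60 with siRNA (adjusted p = 5.84e-06).

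In all, 22 of 58 members were called between TNF and siRNA, Fbxo34 among them. Of these, 12 were higher with TNF (20.7%, against 29.9% of all genes tested) and 10 lower (17.2%, against 30.6%). Fbxo34 stood at 31.3, 30.5 and 34.3 CPM in proliferating libraries, 29.0, 27.1 and 26.8 in control, 20.6, 21.3 and 21.9 with TNF and 27.6, 26.8 and 27.8 with siRNA. Control and siRNA libraries overlapped, and TNF libraries were below all others. Its change was -0.38 with TNF (adjusted p = 1.67e-05) and -0.01 with siRNA (interval -0.14 to 0.11, adjusted p = 0.853), and the difference between TNF and siRNA was -0.37 (adjusted p = 2.55e-05). Fbxw17 rose from 18.3 ± 0.382 CPM in control to 22.7 ± 1.95 with TNF (0.31, adjusted p = 0.000798), against 18.5 ± 0.747 with siRNA, a difference of 0.29 (adjusted p = 0.00138). Fbxl16, a member mainly studied in neurons, was at 17.8 ± 0.456 CPM in control, 15.6 ± 0.116 with TNF and 20.0 ± 0.299 with siRNA, with a difference of -0.36 between TNF and siRNA (adjusted p = 1.89e-05). Fbxo46 and Fbxo10 were higher with TNF than with siRNA by 0.40 (adjusted p = 0.000395) and 0.30 (adjusted p = 0.000455).

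Calls of rare members differed in how far they depended on the libraries used. Fbxo16 was lower with TNF than with siRNA, at -1.42 on the log2 scale (interval -2.22 to -0.61, adjusted p = 0.00364), on levels of 0.320, 0.809 and 0.142 CPM with TNF and 1.35, 1.02 and 0.983 CPM with siRNA. It kept that call whichever single library was left out, but without all libraries named A it no longer passed (-1.09, adjusted p = 0.0868). On differentiation it was -0.81 (adjusted p = 0.0355), and 4 of the single libraries each ended that call, with control B the largest effect (-0.54, adjusted p = 0.165). Fbxw10 was higher on differentiation by 1.19 (adjusted p = 0.0433), a call that 6 of 19 alternatives kept and that fell to 0.75 (adjusted p = 0.274) without control A. Fbxl13 was lower on differentiation, at -1.15 (adjusted p = 1.31e-05), and lower with TNF than with siRNA, at -0.83 (adjusted p = 0.00314). The first of these calls was kept in every alternative. The second was kept whichever single library was left out, but was lost without all libraries named B (-0.63, adjusted p = 0.0620) or C (-0.69, adjusted p = 0.0620). Fbxl21 differed between TNF and siRNA by -1.04 (adjusted p = 0.00432), which was -0.72 (adjusted p = 0.0538) without siRNA B.

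The parts shared by all SCF ligases changed little. Skp1 (listed as Skp1a) was at 286 ± 32.7, 281 ± 7.87, 247 ± 10.7 and 259 ± 10.8 CPM in proliferating, control, TNF and siRNA libraries, and was lower with TNF (-0.19, adjusted p = 0.0148). Cul1 was at 188 ± 11.3, 200.2 ± 4.68, 168 ± 8.21 and 181 ± 4.10 CPM, and was lower with TNF (-0.25, adjusted p = 0.000220) and with siRNA (-0.14, adjusted p = 0.0151). Rbx1, at 162 ± 5.98, 135 ± 3.09, 145 ± 2.82 and 146 ± 3.34 CPM, was lower on differentiation (-0.25, adjusted p = 1.94e-05) and higher with siRNA (0.11, adjusted p = 0.0303). Over 46 tested genes of the core, neddylation, the COP9 signalosome, exchange factors and E2 enzymes, other cullins and F-box genes under other names, 8 were higher and 27 lower on differentiation, 11 and 7 with TNF, 18 and 13 after siRNA, and 12 and 11 between TNF and siRNA. In the same order these are 17.4% and 58.7%, 23.9% and 15.2%, 39.1% and 28.3%, and 26.1% and 23.9%, against 38.4% and 38.9%, 31.0% and 23.6%, 34.1% and 29.8%, and 29.9% and 30.6% of all genes. The COP9 signalosome, which removes Nedd8 from cullins, had none of its 9 measured subunits higher and 8 lower on differentiation, and 6 higher and 1 lower after siRNA. That is 88.9% lower on differentiation (all genes 38.9%) and 66.7% higher after siRNA (all genes 34.1%). The one lower was Cops8, at 81.7 ± 2.38 CPM in control and 58.8 ± 2.62 with siRNA (-0.47, adjusted p = 2.21e-08).

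Single genes of that machinery stood out. Cks1b, the cofactor of Skp2, changed by -1.91 on differentiation, 0.78 with TNF and 1.01 with siRNA (adjusted p = 2.10e-15, 1.04e-08 and 1.78e-10). Ccnf, which encodes cyclin F and is itself an F-box gene, changed by -1.85, 0.78 and 1.19 (adjusted p = 6.71e-15, 4.25e-08 and 4.54e-11). Cand2, the muscle form of the factor that exchanges F-box proteins, rose from 23.3 ± 2.04 to 49.7 ± 1.75 CPM on differentiation (1.09, adjusted p = 3.90e-12) and was at 27.4 ± 0.633 with TNF and 29.1 ± 2.36 with siRNA (-0.86 and -0.77, adjusted p = 4.43e-10 and 2.07e-09). Ube2d1, a ubiquitin-conjugating enzyme, was at 120 ± 3.61 CPM in control, 82.3 ± 5.38 with TNF and 125 ± 2.26 with siRNA. Its change was -0.54 with TNF (adjusted p = 1.07e-08) and 0.06 with siRNA (adjusted p = 0.268), and TNF against siRNA gave -0.60 (adjusted p = 1.66e-09). Cdc34, the E2 enzyme that extends ubiquitin chains on SCF substrates, was at 47.9 ± 1.06 CPM in control, 46.2 ± 2.47 with TNF and 65.1 ± 2.98 with siRNA, and TNF against siRNA gave -0.50 (adjusted p = 2.79e-07).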

How the data were processed

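The authors deposited whole-number read counts per gene symbol for the 12 libraries, and these counts were used as deposited. CASAVA, DESeq2 and the mm10 build were used per the submitters' processing notes, which give no versions. Which aligner, counter, strand setting and annotation were used is not given in the sources used here. Reads of overlapping, antisense or near-identical genes could not be told apart. The deposited comparison tables were not used. The results of 1 member are not reported here by name, although it is in every count of members.

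With edgeR 4.0.16 (limma 3.58.1, R 4.3.3), genes were kept by filterByExpr (12736 genes), scaled by TMM, and fitted by a robust quasi-likelihood model with 4 group means over all 12 libraries (8 residual degrees of freedom). Contrasts were tested with glmQLFTest over all genes, with Benjamini-Hochberg adjustment and a threshold of 0.05. Standard errors are the absolute log2 fold change over the square root of F. The script was tested on simulated data. The median biological coefficient of variation was 0.0482. Intervals and floors cover counting error and the spread between libraries only. Shares were compared by exact two-sided permutation tests in SciPy 1.17.1. No pair of libraries within a group was identical in all values, and the chi-square per degree of freedom of these pairs was 1.6 to 21.3. Gene models came from GENCODE M21, on which all 60 members had a model, 1 of them through a synonym. Proteins were aligned globally with Biopython 1.88 (BLOSUM62, gap opening 11, extension 1, lower cost for end gaps). Promoter windows came from RefSeq, where 45 of 60 members matched.

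The naming rule covered, in each comparison, Fbxl2, its 3 nearest relatives by protein identity, the 6 called members that rose most and the 6 that fell most. Fbxw9 on differentiation and Fbxo42 between TNF and siRNA, each called higher, fall under the rule and are given no value above. Members of role lists could be named whatever their result, as could the 5 highest and lowest per kb, members whose siRNA libraries lay outside the others, Skp1, Cul1, Rbx1 and the 3 SCF-machinery genes with the smallest p. The members and lists were chosen with earlier results of these data known. Alternatives were RLE scaling, DESeq2 1.42.0, no filter on low counts, a fit to the 2 groups compared, a replicate block, and leaving out each library or letter.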

Additional observations from a re-analysis of the deposited data

How the results depend on the processing

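No call of a member reversed its direction in any alternative run. Without the libraries of letter C, with 2 libraries per group, members called with TNF numbered 6 higher and 6 lower, members called lower after siRNA numbered 11, and Fbxl2 with TNF was -0.18 (adjusted p = 0.0892). Without those of letter B, members lower with TNF than with siRNA numbered 6. Leaving out single libraries gave -0.21 to -0.16 for Fbxl2 with TNF, where the call was lost without control C or TNF A. It gave 0.29 to 0.38, -0.61 to -0.51 and 0.32 to 0.42 for Fbxl2 on differentiation, with siRNA and between TNF and siRNA, and these 3 calls were kept throughout. The counts were 20 to 24 members higher and 12 to 17 lower on differentiation, 7 to 11 and 9 to 13 with TNF, 8 to 13 and 16 to 23 with siRNA, and 11 to 14 and 9 to 10 between TNF and siRNA. The difference in the Fbxl2 share of Fbxl counts kept its sign in all 8 alternatives of each comparison.

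Among 112 results for single members other than Fbxl2, 63 kept their side of the threshold in every alternative and 49 lost it in at least 1, in 203 of 2239 alternatives. The cause was not tested, apart from fits with fewer libraries. The same shares for all genes were not computed. Under RLE scaling and DESeq2 no called member changed sign, and the median of all genes moved by less than 0.1.

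Libraries of the same letter correlated at -0.091 to 0.183 in their deviations from group means. Of 12 pairs, 1 was over 0.1 (letter A, TNF with control, where the highest other letter gave -0.019). In 3 of 12 a letter correlated best with itself. With 3 libraries per group, these values cannot decide whether the letters pair the libraries. With the replicate block, 23 members were higher and 13 lower on differentiation, 10 and 11 with TNF, 10 and 22 after siRNA, and 12 and 10 between TNF and siRNA, and Fbxl2 changed by 0.34, -0.19, -0.57 and 0.38 in the 4 comparisons. Depth limits Fbxo15 and Fbxo39, which did not pass the filter on low counts, and Fbxo40 outside control, where it had 1 to 8 counts per library.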
